A study of Mus musculus with 7 samples.

Results

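Transcripts of 9 transcription factors of the insulin-producing beta cell, Pdx1, Mafa, Neurod1, Nkx6-1, Nkx2-2, Isl1, Pax6, Foxa2 and Rfx6, were read out in pancreatic islets of 7 db/db mice. The 9 genes were chosen by name, and each matched 1 of the 51912 Ensembl genes in the count table. db/db mice lack a working leptin receptor and become obese and diabetic, and this genotype is shared by both groups. Of these mice, 4 had been given an adeno-associated virus (AAV) for green fluorescent protein (AAV-GFP) and 3 an AAV for adipsin (AAV-Adipsin), a serine protease of the alternative complement pathway that fat cells secrete. Islets were taken 4 weeks after the vector and cultured for 12 hours, and each library came from a separate mouse. No source used here states the age of the mice or the promoter in the vectors. The comparison asks whether the AAV for adipsin goes with other islet transcripts at a time when, per the labels, blood glucose was alike in the groups.

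These factors hold the beta cell in its mature state by binding the control regions of genes for insulin, glucose sensing and secretion, and of each other. Pdx1, Mafa and Neurod1 bind short elements of the insulin promoter next to one another and act together on it. Nkx6-1 and Mafa are largely restricted to beta cells among the adult islet cells, Pdx1 is also found in delta cells, and Neurod1, Nkx2-2, Isl1, Pax6, Foxa2 and Rfx6 are shared with other endocrine cells of the islet. In diabetic mice a decline of such factors, Mafa in particular, has been tied to the loss of beta cell identity.

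Total counts per library ran from 29601707 to 43997400. Cfd, the gene of adipsin, had 839 to 3965 counts in the AAV-Adipsin libraries and 0 or 1 in the AAV-GFP libraries, which matched the labels. The islet libraries thus held adipsin transcript themselves, and adipsin from the circulation and from the islets cannot be told apart here. All 6 beta cell markers outside the 9 factors (Ins1, Ins2, Iapp, Ucn3, Slc2a2, G6pc2) were detected, and their summed level was 172682 to 202668 CPM in AAV-GFP and 163637 to 203776 CPM in AAV-Adipsin. CPM is the usual measure of counts relative to the scaled size of the library. Other cells were present too, with 13 of 13 acinar markers at a sum of 2980 to 19151 CPM in AAV-GFP and 3574 to 13819.5 CPM in AAV-Adipsin. In each group the description of replicate 1 gives the treatment, and that of every other replicate gives a number after db. These are called treatment-labelled (2) and db-labelled (5) libraries. This description style divided the libraries more than treatment did, and values within each style are given where a result turns on it.

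Promoters of 3 target genes and of 1 of the factors hold short motifs of the kinds that these factors are known to bind. The sequences show the 250 bases before a transcription start that RefSeq lists for each gene on GRCm38.p6, 5′ to 3′ along the gene. For Nkx2-2 this start lies inside the gene's annotated span of 147177546 to 147194243, and not at its outer end. Capitals mark 2 motifs, searched on both strands. Neither overlaps the other in these 4 promoters, but 2 TAAT matches of Iapp share bases with each other. The first is TAAT, which reads as ATTA from the other strand, the core bound by homeodomain proteins such as Pdx1, Nkx6-1, Isl1 and Pax6. The other is an E-box of the kind that Neurod1 binds with its partners, CAGATG, which reads as CATCTG from the other strand. Ins1 and Iapp are shown because they encode hormone products of the beta cell, Ucn3 because it is a marker of mature beta cells whose level differed most by description style among the targets, and Nkx2-2 because it was the 1 factor whose treatment groups did not overlap. They lie at chr19:52264047-52264296 (plus strand), chr6:142298175-142298424 (plus strand), chr13:3945350-3945599 (minus strand) and chr2:147186403-147186652 (minus strand).
Ins1: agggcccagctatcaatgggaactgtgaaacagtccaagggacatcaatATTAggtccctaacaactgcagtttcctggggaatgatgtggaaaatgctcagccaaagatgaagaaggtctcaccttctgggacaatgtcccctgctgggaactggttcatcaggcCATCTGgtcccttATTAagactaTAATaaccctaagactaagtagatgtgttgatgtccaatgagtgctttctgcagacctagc
Iapp: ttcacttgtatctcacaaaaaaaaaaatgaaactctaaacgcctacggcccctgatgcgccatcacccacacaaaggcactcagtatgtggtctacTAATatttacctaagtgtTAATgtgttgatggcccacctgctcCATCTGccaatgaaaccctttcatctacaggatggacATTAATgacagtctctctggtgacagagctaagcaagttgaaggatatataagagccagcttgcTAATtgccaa
Ucn3: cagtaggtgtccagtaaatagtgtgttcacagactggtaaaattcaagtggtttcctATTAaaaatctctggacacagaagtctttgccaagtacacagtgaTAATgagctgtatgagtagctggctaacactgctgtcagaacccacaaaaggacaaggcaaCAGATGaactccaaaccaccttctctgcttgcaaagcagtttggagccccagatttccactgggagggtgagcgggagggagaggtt
Nkx2-2: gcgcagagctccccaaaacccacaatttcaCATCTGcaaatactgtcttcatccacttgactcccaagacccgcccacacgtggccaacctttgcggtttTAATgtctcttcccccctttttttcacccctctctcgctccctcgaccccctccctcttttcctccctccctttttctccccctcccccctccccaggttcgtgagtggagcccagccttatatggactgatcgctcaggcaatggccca
In Ins1 the E-box starts at -84 and is followed by TAAT cores at -71 and -61, counted from the RefSeq start. Iapp holds 5 TAAT cores and an E-box at -111. Nkx2-2 holds 1 of each, at -150 and -220. Such letters are common. Of 32851 promoters in the table, 54.9% held the TAAT core and 14.4% the CAGATG E-box within the same 250 bases. Sequences were found for 8 of the 9 factors at 11 starts, of which 7 held the TAAT core and 1, that of Nkx2-2, the E-box. The promoters of Pdx1, Neurod1 and Nkx6-1 held neither. Of 4 target promoters found, 4 held the TAAT core and 3 the E-box, and these 3 are the ones shown. The fourth, Slc2a2, held 1 TAAT core and no E-box. A match is a description of the letters and not a measured binding site.

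Levels of the 9 factors were compared as CPM per kilobase of merged exons, since longer transcripts give more reads. Nkx6-1, a homeodomain repressor that keeps other endocrine programmes off in beta cells, stood highest at 80.9 ± 7.40 CPM per kb (SD, n = 7), above 97.3% of the 14216 protein coding genes tested. Neurod1 (58.7 ± 3.79) and Pdx1 (47.7 ± 2.16) followed in CPM per kb. Nkx2-2 (44.3 ± 6.14), Rfx6 (42.9 ± 2.71), Foxa2 (40.7 ± 1.89) and Isl1 (37.6 ± 2.96) lay close together in CPM per kb. Mafa was lowest at 5.44 ± 1.01 CPM per kb, above 52.2% of the genes, or 44.3% by the length of the longest transcript. Of the 8 pairs of neighbours in this order, 4 differed in the same direction in 7 of 7 libraries: Nkx6-1 over Neurod1, Neurod1 over Pdx1, Isl1 over Pax6 and Pax6 over Mafa (exact two-sided sign-flip test, p = 0.0156 for each, the smallest that 7 libraries allow, adjusted p = 0.0313 over 8 pairs). Per kilobase of merged exons, the neighbours from Pdx1 to Isl1 did not differ beyond their spread between libraries (adjusted p = 0.175 to 0.781). Per kilobase of the longest transcript the same pairs did (exact sign-flip test, adjusted p = 0.0179 to 0.0313), so they were not shown to be alike. Part of the order depends on the length used. The neighbours were ranked on the same libraries, and the test shows only how steady a ratio is under fixed gene lengths. Isl1 over Pax6 was 0.39 in log2 by merged exons and -0.36 by the longest transcript, with p = 0.0156 for both (exact sign-flip test). Pax6 has 11694 bases of merged exons over its many transcripts, while its longest single transcript has 4427. Per kilobase of the longest transcript, Pax6 stood at 75.9 ± 3.24 CPM per kb, the second highest of the 9, and Nkx2-2 and Isl1 at 60.0 ± 8.32 and 59.2 ± 4.66. Nkx6-1 had the highest mean and Mafa the lowest under both lengths, but per kilobase of the longest transcript Nkx6-1 stood above Pax6 in only 4 of 7 libraries (exact sign-flip test, adjusted p = 0.225).

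**Figure D1:**
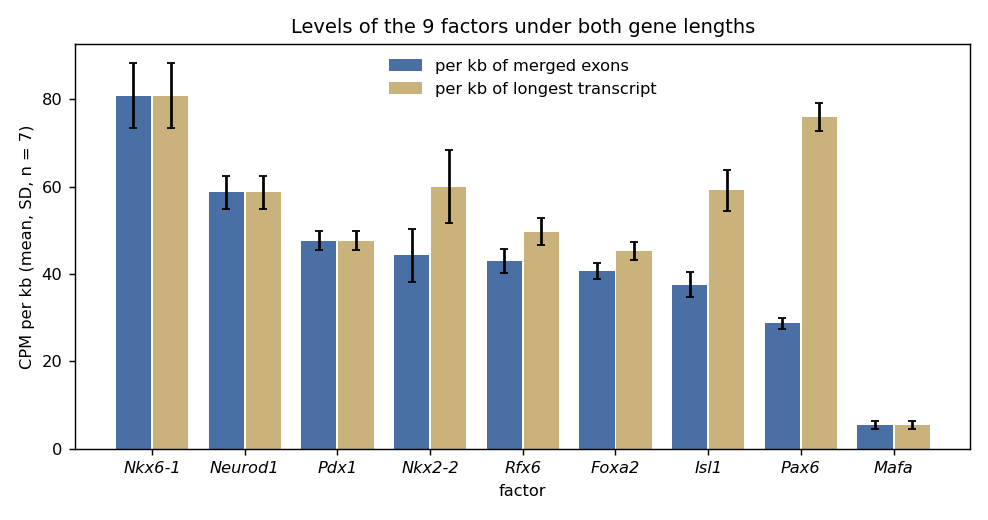
Mean level of each factor in CPM per kb over 7 libraries (bars; error bars are SD), per kilobase of merged exons (blue) and of the longest transcript (tan). Nkx6-1 has the highest mean and Mafa the lowest under both lengths, while Pax6 moves from 28.7 to 75.9 CPM per kb.

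None of the 9 factors passed the threshold of an adjusted p under 0.05 between AAV-Adipsin and AAV-GFP in edgeR's quasi-likelihood test, fitted and adjusted over 16504 genes. Over all genes 1, Cfd itself, passed (0.00606% of those tested), and it was lost without any 1 of the AAV-GFP libraries or AAV-Adipsin replicate 3, when 0 passed. All 9 fitted log2 fold changes lay below 0, with a median of -0.07, where 53.8% of all genes lay below 0 with a median of -0.01. The median size of the fitted change was 0.07 for the factors and 0.08 for all genes. When libraries were scaled by their totals alone, Pdx1 and Foxa2 lay above 0. Of the 6 beta cell markers outside the factors, 6 had fitted changes below 0 (median -0.06), and none passed. Marker sums of other cells overlapped between the groups, but 9 of 9 macrophage markers had fitted changes above 0 (median 0.66), as had 8 of 9 endothelial (median 0.21) and 8 of 9 mesenchymal markers (median 0.23), and 13 of 13 acinar markers lay below 0 (median -0.35). The macrophage sum was 72.5 to 116 CPM in AAV-GFP and 80.0, 222 and 101 CPM in AAV-Adipsin replicates 1 to 3, with replicate 2 apart from the others. Their part in the values of the 9 factors was not tested. In bulk islets, fewer cells of a type and less RNA per cell cannot be told apart.

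**Figure D2:**
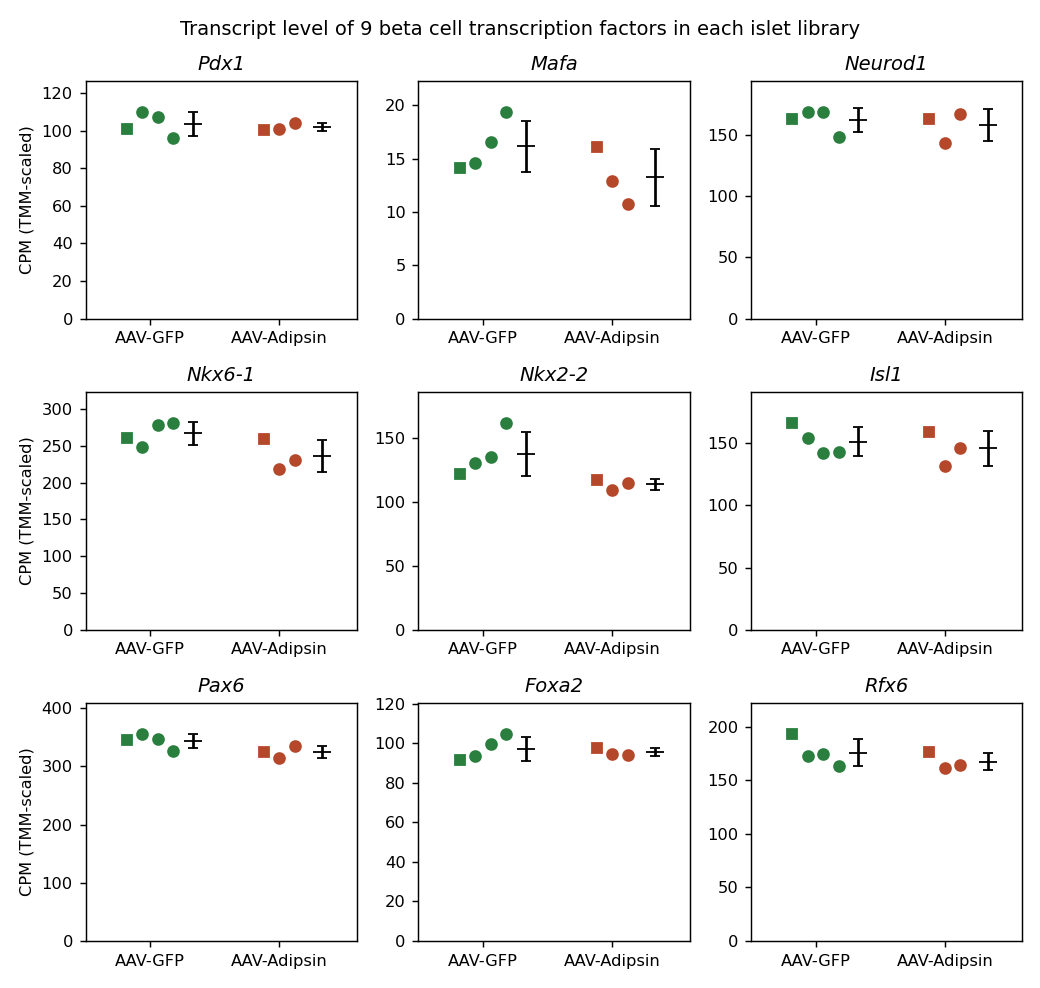
Level of each factor in CPM in the 4 AAV-GFP (green) and 3 AAV-Adipsin (red) libraries; squares are treatment-labelled libraries, circles db-labelled libraries, and black bars the group mean and SD. The groups overlap for every factor but Nkx2-2, whose AAV-Adipsin libraries at 109 to 118 CPM lie below the lowest AAV-GFP library at 122 CPM.

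Pdx1 (ENSMUSG00000029644, chromosome 5, 147269959 to 147275848, plus strand) encodes the homeodomain protein that founds the pancreas and later activates the insulin genes. Its level in AAV-GFP replicates 1 to 4 was 101, 110, 107 and 96.2 CPM, and in AAV-Adipsin replicates 1 to 3 it was 100.5, 101 and 104 CPM. The AAV-Adipsin libraries lay inside the range of the AAV-GFP libraries. The log2 fold change was -0.02 (SE 0.08), and its 95% interval reached from a fold of 0.872 to 1.11 (edgeR adjusted p = 1.00).

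Mafa (ENSMUSG00000047591, chromosome 15, 75745490 to 75748228, minus strand) encodes a basic leucine zipper activator of insulin that appears late, as beta cells mature. It was read by only 408 to 638 counts a library, and stood at 14.1, 14.6, 16.6 and 19.4 CPM in AAV-GFP replicates 1 to 4. The AAV-Adipsin libraries had 16.1, 12.9 and 10.7 CPM in the order of their numbers. Replicates 2 and 3 of AAV-Adipsin lay below all AAV-GFP libraries and replicate 1 lay among them. Its fitted log2 change was -0.29 (SE 0.17), with an interval from a fold of 0.631 to 1.07, and did not pass (exact permutation p = 0.229, edgeR adjusted p = 1.00). Its spread over the 7 libraries, an SD of 0.27 in log2 CPM, was the widest of the 9 factors, and counting error alone gives a coefficient of variation of at most 4.95%. The difference was 0.19 in the treatment-labelled pair and -0.50 among the db-labelled libraries. The edgeR test of that difference did not pass (adjusted p = 1.00). Its unadjusted p was under 0.05, as for 0.818% of all genes, of which 0% passed. Leaving out AAV-Adipsin replicate 3 gave -0.14, AAV-GFP replicate 4 gave -0.19 and AAV-Adipsin replicate 1 gave -0.45. It was -0.50 with the treatment-labelled pair left out, and Mafa did not pass in any of these fits.

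Neurod1 (ENSMUSG00000034701, chromosome 2, 79452521 to 79456751, minus strand) encodes a basic helix-loop-helix activator that binds E-boxes such as the one capitalised in the Ins1 promoter. AAV-GFP replicates 1 to 4 had 163, 168, 169 and 148 CPM, and AAV-Adipsin replicates 1 to 3 had 163, 143 and 168 CPM. AAV-GFP replicate 4 and AAV-Adipsin replicate 2 were the low libraries, 1 in each group. Its log2 fold change of -0.04 (SE 0.09) did not pass.

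Nkx6-1 (ENSMUSG00000035187, chromosome 5, 101658139 to 101664996, minus strand) had 260.4, 248.5, 278 and 281 CPM in AAV-GFP replicates 1 to 4. In AAV-Adipsin the values were 260.0, 218 and 230 CPM in the order of the replicates. Replicates 2 and 3 of AAV-Adipsin lay below all AAV-GFP libraries, and replicate 1 did not. The fitted change was -0.18 on the log2 scale (SE 0.09), with an interval from a fold of 0.767 to 1.02, and did not pass (exact permutation p = 0.114, edgeR adjusted p = 1.00). Without AAV-Adipsin replicate 2 it was -0.12. Within styles it was -0.0021 for the treatment-labelled libraries and -0.26 for the db-labelled ones, and the edgeR interaction did not pass (adjusted p = 1.00).

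Nkx2-2 (ENSMUSG00000027434, chromosome 2, 147177546 to 147194243, minus strand) encodes a homeodomain protein that beta cells need in order to form and to keep alpha and delta cell genes off. AAV-GFP replicates 1 to 4 had 122, 131, 135 and 162 CPM, and AAV-Adipsin replicates 1 to 3 had 118, 109 and 115 CPM. It was the 1 factor of the 9 whose groups did not overlap, against 2.73% of all genes tested (1.58% with AAV-Adipsin lower). The log2 fold change was -0.27 (SE 0.10), which is a fold of 0.828 with an interval from 0.703 to 0.976. Its unadjusted p of 0.0287 was the only one of the 9 under 0.05, where 1.16% of all genes had such a p (0.436% in the lower direction), and it ranked 87 of 16504. With description style as batch its p was again under 0.05, as for 2.78% of all genes. After adjustment it did not pass (edgeR adjusted p = 1.00, DESeq2 adjusted p = 1.00, where 0.0102% of genes passed in DESeq2). The exact two-sided permutation p over the 35 divisions of the libraries was 0.0571, the smallest that this design allows.

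The nearest libraries of the 2 groups lay close together for Nkx2-2. The highest AAV-Adipsin library and the lowest AAV-GFP library, both treatment-labelled, differed by -0.06 in log2 CPM, and the other libraries by -0.34 on average. AAV-GFP replicate 4, the highest library for Nkx2-2 and for Mafa, also had the highest summed level of 9 of 9 mesenchymal markers (351 CPM against 92.4 to 138 in the other AAV-GFP libraries), of 9 of 9 endothelial markers (779 against 464 to 515 CPM) and of 4 of 4 delta cell markers (963 against 488 to 594 CPM). Its sums of beta cell, duct and macrophage markers were likewise the highest in AAV-GFP, at 202668, 2010 and 116 CPM. Its acinar sum was the lowest, at 2980 CPM, and its alpha cell sum of 7858 CPM lay within the AAV-GFP range of 6976 to 9906 CPM. In AAV-Adipsin the mesenchymal sum was 156 to 214 CPM, the endothelial sum 587 to 705 CPM and the delta sum 603 to 639 CPM. The part of these cells in the level of Nkx2-2 was not tested. Without AAV-GFP replicate 4 the log2 fold change of Nkx2-2 was -0.18 and did not pass (edgeR adjusted p = 1.00). As a ratio to Pdx1 within a library, which does not depend on scaling, Nkx2-2 stood at 0.249 to 0.75 log2 units in AAV-GFP. In AAV-Adipsin it stood at 0.11 to 0.225, just short of overlap (exact permutation p = 0.0857). Pdx1 varied little, with an SD of 0.065 in log2 CPM, so the ratio largely repeats the values of Nkx2-2. The share of all genes without overlap in such a ratio was not taken.

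**Figure D3:**
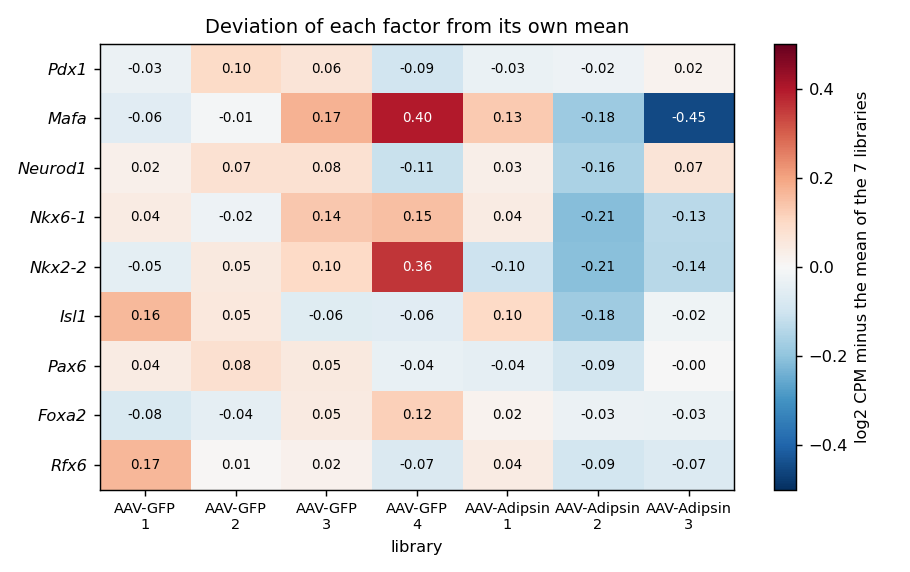
Log2 CPM of each factor minus its mean over the 7 libraries, by library (columns) and factor (rows); red is above and blue below the mean. Mafa, Nkx6-1 and Nkx2-2 vary most, and all 3 are highest in AAV-GFP replicate 4, at 0.40, 0.15 and 0.36.

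Isl1 (ENSMUSG00000042258, chromosome 13, 116298281 to 116309689, minus strand) encodes a LIM homeodomain protein that works in a complex with Ldb1 and its partner Ssbp3. AAV-GFP replicates 1 to 4 had 166, 154, 142 and 143 CPM, and AAV-Adipsin replicates 1 to 3 had 159, 131 and 146 CPM. In both groups replicate 1 was the highest library. Isl1 had a fitted log2 change of -0.05 (SE 0.10), which did not pass.

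Pax6 (ENSMUSG00000027168, chromosome 2, 105668900 to 105697364, plus strand) encodes a protein with a paired domain and a homeodomain that all islet endocrine cells need. It had 346, 355, 347 and 327 CPM in AAV-GFP replicates 1 to 4 and 326, 315 and 336 CPM in AAV-Adipsin replicates 1 to 3. Although 2 of the 3 AAV-Adipsin libraries lay below all AAV-GFP libraries, the log2 fold change was only -0.08 (SE 0.08) and did not pass. Its spread over the 7 libraries, an SD of 0.062 in log2 CPM, was the narrowest of the 9.

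Foxa2 (ENSMUSG00000037025, chromosome 2, 148042877 to 148046969, minus strand) encodes a forkhead protein that opens chromatin of endodermal genes, Pdx1 among them. AAV-GFP replicates 1 to 4 had 91.3, 93.5, 99.4 and 105 CPM, and the AAV-Adipsin libraries, at 94.1 to 97.7 CPM, lay inside that range. The log2 fold change was -0.03 (SE 0.08). Rfx6 (ENSMUSG00000019900, chromosome 10, 51677756 to 51730432, plus strand) encodes a winged-helix factor needed for the development of islets and for the expression of calcium channels and insulin in adult beta cells. Its AAV-GFP libraries had 193, 172, 174 and 164 CPM and its AAV-Adipsin libraries 177, 161 and 164 CPM. The groups overlapped, and the log2 fold change was -0.07 (SE 0.08). The intervals of these factors bound what was not detected. For Pdx1, Neurod1, Isl1, Pax6, Foxa2 and Rfx6 the 95% interval of the fold ran between 0.828 and 1.12 at its widest bounds.

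**Figure D4:**
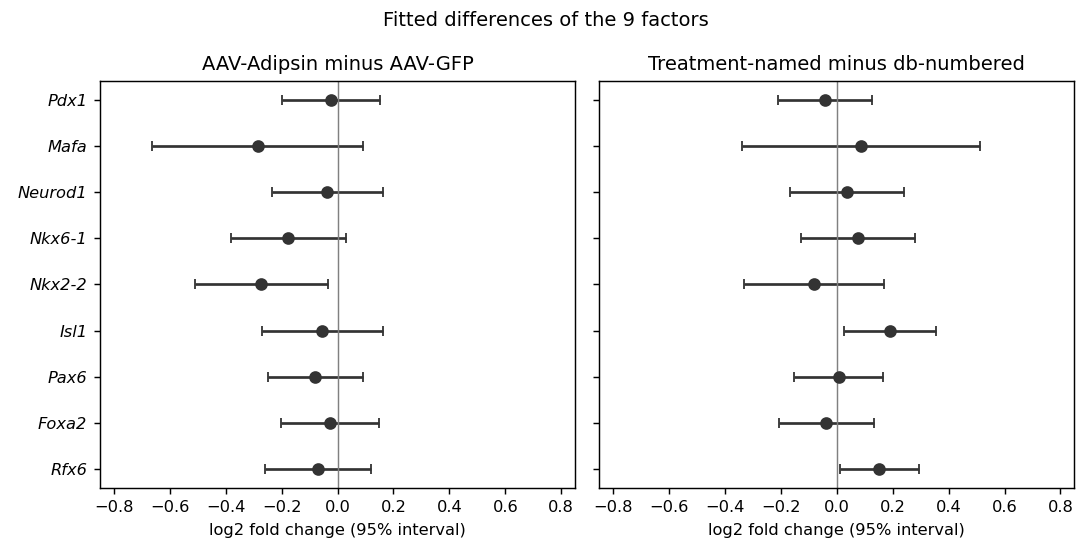
Fitted log2 fold change of each factor with its 95% interval, for AAV-Adipsin minus AAV-GFP (left) and for treatment-labelled libraries minus db-labelled libraries (right). On the left the interval of Nkx2-2 alone, around -0.27, leaves out 0, and on the right those of Isl1 (0.19) and Rfx6 (0.15) do; none of them passed after adjustment over all genes.

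Factors differed in how far they varied between mice. The SD of log2 CPM over the 7 libraries had a median of 0.096 over the 9 factors, beside 0.20 over all genes tested and 0.14 over the 8654 genes at or above the mean level of Mafa. Mafa, at 0.27, lay above both of these values, and Nkx2-2, at 0.19, above the second. In the profile over the 7 libraries, measured as the root mean square difference of log2 CPM centred on each gene's mean, a gene that varies little is close to any other such gene. Pdx1 and Pax6, both among the least variable, differed by 0.045. Mafa, the most variable, differed by 0.15 from Nkx2-2, 0.16 from Nkx6-1 and 0.21 to 0.28 from the other 6 factors. Among 10039 other protein coding genes, the most alike in profile was Gtpbp1 for Pdx1 (0.012), Cdk20 for Mafa (0.11), Ncald for Neurod1 (0.023), Pigf for Nkx6-1 (0.041), Nbl1 for Nkx2-2 (0.038), Angel2 for Isl1 (0.023), B4galt3 for Pax6 (0.019), Mrpl48 for Foxa2 (0.023) and Dmap1 for Rfx6 (0.022). The median over all these genes was 0.14 for Pdx1 and Pax6, 0.22 for Nkx2-2 and 0.29 for Mafa. The 7 points of each profile share their library, depth and description style, and Ncald and the others were picked as the closest of many.

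Description style was fitted beside treatment, as treatment-labelled libraries minus db-labelled libraries. None of the 9 factors passed, while 9.79% of the 16504 genes did (edgeR adjusted p under 0.05). Isl1 had a log2 difference of 0.19 (SE 0.07, adjusted p = 0.130) and Rfx6 of 0.15 (SE 0.06, adjusted p = 0.153) in edgeR, and both were higher in each of the 2 treatment-labelled libraries than in any of the other 5. Such a lack of overlap was found for 37.6% of all genes (18.7% in that direction), and an unadjusted p under 0.05, which these 2 factors had, for 28.2%. A count of 2 in 9 is near that background. The other 7 factors had log2 differences between -0.08 and 0.09.

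Several target genes of these factors did differ by description style. Of 15 genes that beta cell transcription factors are known to activate, 5 were higher in the treatment-labelled libraries and 0 lower (4.22% and 5.57% of all genes were). Ucn3, a peptide marker of mature beta cells, stood at 205 and 235 CPM in AAV-GFP and AAV-Adipsin replicate 1 and at 96.5 to 159 CPM in the other 5 libraries (log2 difference 0.89, SE 0.19, edgeR adjusted p = 0.0305). Slc2a2, the glucose transporter GLUT2, stood at 73.0 and 72.0 CPM against 28.7 to 56.3 CPM (0.85, SE 0.17, edgeR adjusted p = 0.0261). The zinc transporter Slc30a8 (0.64), the amyloid peptide Iapp (0.40) and the granule protein Chga (0.32) were the other 3. Ins1 lay at -0.40 (SE 0.19) and Ins2 at 0.20 (SE 0.09), and neither passed. Their close similarity could let the counting divide reads between them. G6pc2, a glucose-6-phosphatase of the islet, stood at 1005 and 1025 CPM in the treatment-labelled libraries and 1105 to 1185 CPM in the others (-0.17, SE 0.07), and did not pass (edgeR adjusted p = 0.131). A difference between the targets' style values and those of the factors was not tested. The acinar sum was 4257 to 5629 CPM in the treatment-labelled libraries and 2980 to 19151 CPM in the others, and the macrophage sum, with 9 of 9 markers detected, 72.5 to 80.0 and 73.7 to 222 CPM. Of the 9 macrophage markers 2, Cx3cr1 (-0.92) and Msr1 (-1.22), passed as lower in treatment-labelled libraries. The median style difference was -0.69 over the macrophage markers, -1.05 over 13 acinar, -0.78 over 7 duct and -0.55 over 9 mesenchymal markers. No acinar, duct or mesenchymal marker passed. The part of such cells was not tested. The labels do not say what the style stands for. Among the partners Rfx3 (0.66, SE 0.16) and Tcf3 (0.33, SE 0.07) also passed, and among factors of other lineages Neurog3 (0.48, SE 0.09), all higher in treatment-labelled libraries. The calls rest on 2 libraries: without AAV-GFP replicate 1, 39 genes passed in place of 1616, without AAV-Adipsin replicate 1, 55, and none of these 8 genes was among them. The number was 671, 346 and 501 without AAV-GFP replicate 3 and AAV-Adipsin replicates 2 and 3, and 4348 without AAV-GFP replicate 4. Without AAV-Adipsin replicate 2 or 3 none of the 8 passed either. Iapp and Slc2a2 were also lost without AAV-GFP replicate 3, Slc2a2 without AAV-GFP replicate 4, and Chga, Rfx3 and Tcf3 without AAV-GFP replicate 2 or 3. The differences of all 5 targets stayed above 0 whichever library was left out, at 0.22 to 1.19.

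**Figure D5:**
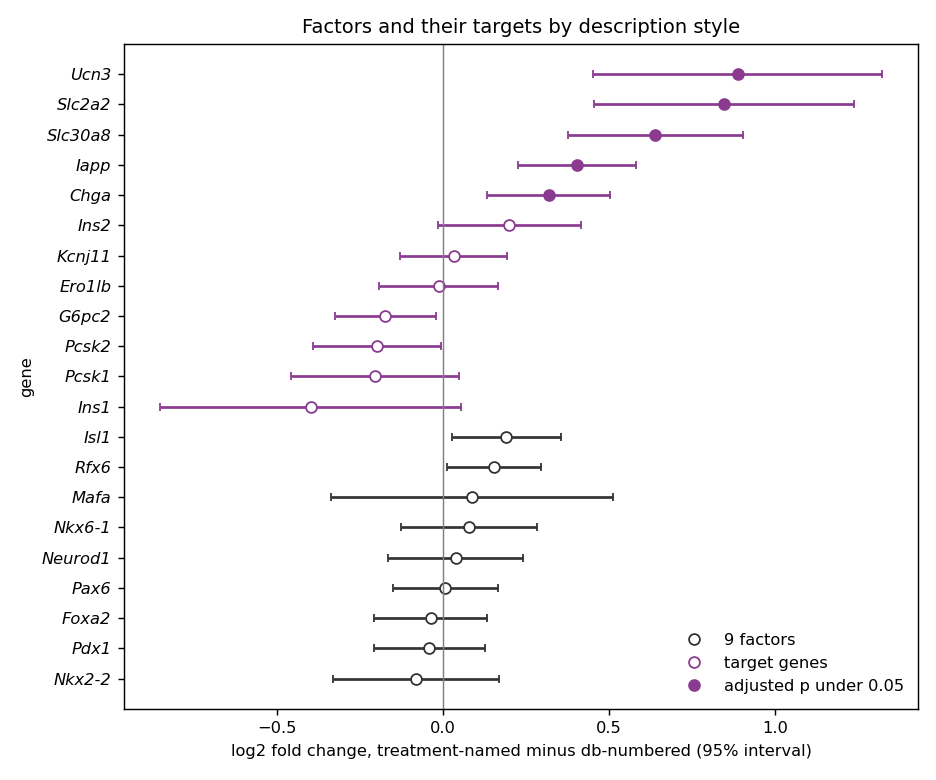
Log2 difference between treatment-labelled libraries and db-labelled libraries, with 95% intervals, for the 9 factors (black) and 12 of the 15 target genes, those named in the text (purple); filled points passed an adjusted p under 0.05. The 5 filled points are Ucn3, Slc2a2, Slc30a8, Iapp and Chga, at 0.32 to 0.89, while the 9 factors lie between -0.08 and 0.19.

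Between AAV-Adipsin and AAV-GFP, none of these 15 target genes passed in either direction, 13 had a fitted log2 fold change below 0, and their median was -0.06 beside -0.01 over all genes. The 4 with the smallest p were Ero1lb, an oxidase for insulin folding, at -0.09 (SE 0.08), Kcnj11, a subunit of the ATP-sensitive potassium channel, at -0.08 (SE 0.07), and the prohormone convertases Pcsk2 at -0.11 (SE 0.11) and Pcsk1 at -0.11 (SE 0.12). Slc2a2, the farthest of the targets from 0 at -0.20, had an SE of 0.33.

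Of 20 partner factors and cofactors outside the 9, 0 passed in either direction, 11 lay below 0, and their median was -0.0092. Ssbp3, which binds Ldb1 in the complex with Isl1, was the 1 partner whose groups did not overlap, at 104, 113, 112 and 133 CPM in AAV-GFP and 98.6, 102 and 104 CPM in AAV-Adipsin. AAV-GFP replicate 1, at 103.8 CPM, lay just above the highest AAV-Adipsin library at 103.6 CPM. Of all genes tested, 2.73% had groups without overlap, 1.58% with AAV-Adipsin lower, so 1 partner of 20 is not read as a result. The log2 fold change of Ssbp3 was -0.19 (SE 0.10, edgeR adjusted p = 1.00), and that of Ldb1 -0.12 (SE 0.08). Foxa1, the relative of Foxa2, had the smallest p of the list at 1.11 (SE 0.52), but stood at only 0.0974 to 0.634 CPM in any library. Tcf4, an E-protein of the class that pairs with Neurod1, stood at 0.10 (SE 0.07).

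Factors of other pancreatic lineages did not pass either. Of 16 such genes 15 were tested, since Pax4 had 2 counts in all, 7 lay below 0, and the median was 0.0062. Onecut1, of progenitors and duct, at 0.83 (SE 0.50), and Pou3f4, of alpha cells, at -0.57 (SE 0.36), stood below 1 CPM in every library. Irx2, of alpha cells, stood at 0.18 (SE 0.17).

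Some of the factors' loci hold other genes. Pdx1 lies next to Plut, an RNA gene read from the opposite strand whose span overlaps that of Pdx1 without shared exon bases. Plut had 79 to 137 counts a library, 2.33% to 3.52% of those of Pdx1, and a log2 fold change of 0.04 (SE 0.19). At Nkx2-2, the opposite-strand RNA 6430503K07Rik stood at 2.60 to 3.45 CPM in AAV-GFP and at 3.09, 2.09 and 1.78 CPM in AAV-Adipsin replicates 1 to 3, with a log2 fold change of -0.44 (SE 0.24) that did not pass. Its groups overlapped, with AAV-Adipsin replicates 2 and 3 below all AAV-GFP libraries. Nkx2-2os shares 278 exon bases with Nkx2-2 and had 0 to 5 counts. Pax6os1, opposite to Pax6, had 345 to 422 counts, and its log2 fold change was -0.09 (SE 0.17). Neurod1 shares 201 exon bases, 7.37% of its merged exons, with Cerkl on the same strand, a gene with 10.5% to 14.7% of the counts of Neurod1. How the counting treated strand and shared bases is not stated, and a small part of these counts could belong to the neighbour.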

How the data were processed

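Messenger RNA libraries were made from islets of 7 db/db mice with a stranded kit, 1 library per mouse, per the labels' protocols. STAR and mm10 (GRCm38) are named in the submitters' processing notes, and the authors deposited raw read counts per Ensembl gene. No source used here gives the STAR version, counting program, strand setting or annotation release. Of 51912 genes, 51719 matched GENCODE release M21 (release 21), which gave symbols, coordinates and exon lengths, and 22479 had no count. Ero1b was matched through its older symbol Ero1lb.

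Counts were tested in R 4.3.3 with edgeR 4.0.16 (filterByExpr by group, TMM scaling with factors of 0.979 to 1.02, robust quasi-likelihood F test, two-sided, Benjamini-Hochberg over 16504 genes, threshold 0.05), over all libraries without covariates. Standard errors come from the F statistic, and 95% intervals from its degrees of freedom. Log2 CPM values carried a prior count of 2. Description style was tested in a model with treatment, and its interaction with treatment in a further one. Exact permutation tests over libraries were two-sided. Between the treatment groups they cannot give a p below 0.0571, so none could reach 0.05. Alternatives were other scaling, no filter, DESeq2 1.42.0, limma-voom (limma 3.58.1), style as batch, a replicate block, another threshold or gene length, and removal of libraries. On simulated counts of this comparison over 16504 genes with 200 changed, edgeR recovered 68% of 2-fold and 98% of 4-fold changes, with 7.26% of calls false. The simulated counts held no difference by description style or cell make-up. Changes smaller than 2-fold, such as those fitted for the factors, were not tried. In the real counts Cfd, with a log2 fold change of 12.4 (SE 0.93), had an edgeR adjusted p of 0.0420. Recovery in the real counts was not measured and could be lower than in the simulation.

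The 9 members and the gene lists were chosen with earlier results of these data known. Besides the members and Cfd, the text names genes among the 4 of smallest p in each list, Ins1, Ins2, Slc2a2 and Ucn3, and for each member the gene most alike in profile (protein coding, mean log2 CPM of at least 3). Other genes were named because they overlap a member or passed for description style, and G6pc2 after its values were seen. Some genes of the lists are not reported here. Replicates of a group differed by more than counting noise, and none was merged.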

Additional observations from a re-analysis of the deposited data

Results flagged for a closer look

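In a group of 4 libraries, a lowest or highest library was looked at again where its gap to the nearest other exceeded Dixon's 95% critical value for that gap over the group's range, which chance does in about 1 in 20 groups. None of the 9 factors met this in AAV-GFP. Of the 39 named genes examined in this way, 2 did, both through a low AAV-GFP replicate 4. Cerkl, the neighbour of Neurod1, stood there at 16.7 CPM against 19.55 to 19.62 CPM in the other 3 libraries (ratio 0.979). Ncald, the gene most like Neurod1 in profile, stood at 122 CPM against 139 to 141 CPM (ratio 0.930). For none of the 39 did the interaction of treatment and description style pass (edgeR, smallest adjusted p = 1.00).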

How the results depend on the processing

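No factor passed under any of the 16 settings tried, and 127 of 135 refitted log2 fold changes kept their sign. With library totals alone Pdx1 was at 0.0049 and Foxa2 at 0.0022. With each library left out in turn, the range was -0.056 to 0.016 for Pdx1, -0.075 to 0.036 for Neurod1, -0.12 to 0.021 for Isl1 and -0.044 to 0.011 for Foxa2. The signs of Mafa, Nkx6-1, Nkx2-2, Pax6 and Rfx6 were negative throughout, and the unadjusted p of Nkx2-2 was under 0.05 in 12 of 15 fits and ran from 0.0158 to 0.0977 over all 15. Of all genes, 0.546% to 6.72% had an unadjusted p under 0.05 in these 15 fits, which share libraries. Mafa and Nkx6-1 had such a p in 2 fits each, without AAV-Adipsin replicate 1 and without both treatment-labelled libraries. The cause was not tested. In these 2 fits 3.15% and 3.03% of all genes had such a p. Over all genes, the count past the threshold, 1 in the main analysis, was 3 with DESeq2, 0 without a filter, 0 with limma-voom, 0 without both treatment-labelled libraries, and 0 to 1 with a library left out. For description style the count ran from 39 to 4348 with a library left out.

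With the replicate number as a block, in which AAV-GFP replicate 4 has no partner and adds nothing, Foxa2 was at 0.011 and Nkx2-2 at -0.18, the count of factors past the threshold was 0 and that of all genes 1. Deviations of libraries with the same number correlated across genes at 0.66, -0.01 and 0.0071 for numbers 1 to 3, so the numbers are not taken as pairs.

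The order of levels depended on gene length. By the longest transcript the log2 ratio was -0.32 for Pdx1 over Nkx2-2, 0.26 for Nkx2-2 over Rfx6 and 0.13 for Rfx6 over Foxa2. It was -0.38 for Foxa2 over Isl1 and -0.36 for Isl1 over Pax6. All of these passed in the exact sign-flip test (adjusted p = 0.0179 to 0.0313), which takes the lengths as fixed. With a library left out the ratios ran from 0.41 to 0.49 for Nkx6-1 over Neurod1, 0.29 to 0.32 for Neurod1 over Pdx1, 0.085 to 0.19 for Pdx1 over Nkx2-2, -0.035 to 0.072 for Nkx2-2 over Rfx6, 0.036 to 0.11 for Rfx6 over Foxa2, 0.36 to 0.40 for Isl1 over Pax6 and 2.35 to 2.49 for Pax6 over Mafa. With 6 libraries the smallest p is 0.0313, so the adjusted p with a library left out are bounded by the design. Depth limits Mafa most, at 408 to 638 counts.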
